A study of Mus musculus with 26 samples.

Results

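Glucose transporters, the enzymes that take glucose to lactate, the monocarboxylate transporters and the kinases that control entry to glycolysis and the use of pyruvate were followed in mouse myeloid cells with and without Prss57, the gene of neutrophil serine protease 4 (NSP4). The 33 genes were taken by symbol, each matched to 1 Ensembl identifier, from the 52636 genes listed in every library. They were Slc2a1, Slc2a3, Hk1, Hk2, Hk3, Gpi1, Pfkl, Pfkm, Pfkp, Aldoa, Aldoc, Tpi1, Gapdh, Pgk1, Pgam1, Pgam2, Eno1, Eno2, Eno3, Pkm, Pklr, Ldha, Ldhb, Slc16a1, Slc16a3, Pdk1, Pdk2, Pdk3, Pdk4, Pfkfb1, Pfkfb2, Pfkfb3 and Pfkfb4. RNA was sequenced in 26 bulk libraries in 6 groups. There were 4 wild-type and 4 Prss57-/- libraries of common myeloid progenitors (CMPs), 4 and 4 of granulocyte-monocyte progenitors (GMPs), and 5 and 5 of bone marrow-derived mast cells (BMMCs). CMPs and GMPs were sorted as lineage-negative, SCA-1-negative, CD117+ CD34+ marrow cells with low and high CD16/32, and BMMCs were grown from sorted GMPs in IL-3 and SCF. The Prss57-/- libraries carry the label NSP4 KO. The study's supplement gives strain 2, a germline knockout that lacks exon 2, as the source of its Prss57-/- mice outside the joint vascular leakage experiments, and the labels name neither strain nor age. The progenitor libraries came from female mice and 1 sequencing run, and the BMMC libraries, which carry P3 in their label, from male mice and another run. A difference between BMMCs and progenitors therefore cannot be told apart from one of culture, sex or run, whereas the genotypes of a cell type shared sex and run.

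Glycolysis turns glucose into pyruvate in the cytosol and yields ATP without oxygen. Glucose enters through GLUT transporters such as GLUT1 (Slc2a1) and GLUT3 (Slc2a3), hexokinases trap it as glucose 6-phosphate, and phosphofructokinase commits it to the pathway under the control of fructose 2,6-bisphosphate, which the PFKFB enzymes make and remove. Pyruvate kinase makes pyruvate, lactate dehydrogenase interconverts it with lactate, and the monocarboxylate transporters MCT1 (Slc16a1) and MCT4 (Slc16a3) move lactate across the membrane. The PDK kinases phosphorylate and switch off pyruvate dehydrogenase, the gate of pyruvate into the citric acid cycle. Most steps are served by several isoenzymes from separate genes, which tissues use in different proportions. Pklr encodes the pyruvate kinase of red cells and liver, whereas Pkm encodes that of most other tissues, and Hk3 is a hexokinase found mainly in myeloid cells. Mature neutrophils are known to depend strongly on glycolysis.

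The promoters of 3 genes are printed because their levels fell most (Pklr) and rose most (Hk3) between wild-type CMPs and GMPs or because the gene stood highest of the 33 in every CMP library (Ldha). Each runs from 250 bases before to 50 bases after the RefSeq start on GRCm38.p6, 5′ to 3′ on the gene's strand. Pklr starts on the plus strand at chr3:89135892-89136191, Hk3 on the minus strand at chr13:55021336-55021635 and Ldha on the plus strand at chr7:46845554-46845853. Capitals mark every match, on either strand, to the hypoxia response core ACGTG, the E-box CACGTG, the GATA factor sequence AGATAA, the ETS factor sequence GAGGAA and the C/EBP sequence TTGCNNAA.
Pklr: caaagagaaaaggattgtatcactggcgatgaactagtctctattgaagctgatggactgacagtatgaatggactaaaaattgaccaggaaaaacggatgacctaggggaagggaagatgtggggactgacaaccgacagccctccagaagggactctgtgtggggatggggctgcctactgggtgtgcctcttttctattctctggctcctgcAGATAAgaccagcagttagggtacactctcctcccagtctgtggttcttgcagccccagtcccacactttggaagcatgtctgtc
Hk3: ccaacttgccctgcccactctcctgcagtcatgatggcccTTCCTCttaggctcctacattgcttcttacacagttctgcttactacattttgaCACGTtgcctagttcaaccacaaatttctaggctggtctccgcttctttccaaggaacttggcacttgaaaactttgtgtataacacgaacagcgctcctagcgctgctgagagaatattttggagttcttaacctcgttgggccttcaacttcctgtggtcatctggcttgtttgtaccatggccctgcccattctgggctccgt
Ldha: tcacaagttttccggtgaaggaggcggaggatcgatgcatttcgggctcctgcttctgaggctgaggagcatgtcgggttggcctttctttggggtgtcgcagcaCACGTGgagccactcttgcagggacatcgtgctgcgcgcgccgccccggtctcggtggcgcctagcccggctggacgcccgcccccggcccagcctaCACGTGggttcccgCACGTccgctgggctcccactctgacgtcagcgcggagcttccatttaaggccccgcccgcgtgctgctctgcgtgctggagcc
RefSeq gives Pklr and Ldha a second start each, and only the upstream one is printed. The upstream Pklr promoter held 1 match, to AGATAA. The Hk3 promoter held 1 match to ACGTG and 1 to GAGGAA. The upstream Ldha promoter held CACGTG at 2 places and a further ACGTG match on its own. The second promoters of Pklr (chr3:89136373-89136672) and Ldha (chr7:46846832-46847131) held no match to the 5 sequences. In all, 52 RefSeq promoters of 32 of the genes were searched, and none was found for Slc2a3. ACGTG was in 42.3% of these 52 promoters and in 19.6% of 32851 promoters of the same length. CACGTG, which always holds ACGTG, was in 11.5% against 7.15%. AGATAA was in 17.3% against 11.2%, GAGGAA in 25.0% against 28.3%, and TTGCNNAA in 5.77% against 10.8%. Several promoters belong to 1 gene, and a match describes the sequence and is not a binding site.

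The libraries held 35501671 to 51497962 reads on genes in GMPs, 32078404 to 53264762 in CMPs and 18627626 to 28647216 in BMMCs. Prss57 had a normalized RPKM of 145 ± 35.7 (SD, n = 4) in wild-type GMPs and 0.132 ± 0.0626 in Prss57-/- GMPs, 23.2 ± 7.47 in wild-type CMPs and 1 read in each Prss57-/- CMP library. Wild-type BMMC libraries held 2 to 27 Prss57 reads and Prss57-/- BMMC libraries 0. Normalized RPKM is the read count divided by a gene length constant and a library size factor, and it is used for every level given here. The sorted populations carried their markers, with all 6 GMP markers higher in GMPs than in CMPs and all 6 mast cell markers higher in BMMCs than in either progenitor. The 6 late neutrophil markers summed to 819 to 5157 in the GMP libraries against 11.9 to 81.3 in CMPs, and the 6 erythroid markers to 23.0 to 85.9 in CMPs against 2.97 to 19.0 in GMPs. The 8 macrophage and dendritic cell markers summed to 60.8 to 100.4 in progenitors and, replicate 3 of Prss57-/- aside, to 1175 to 1860 in BMMCs. Prss57-/- BMMC replicate 3 had a sum of 129, with none of the 8 at 0, and the highest mast cell marker sum, 74552 against 24752 to 46202 in the other BMMC libraries. Prss57-/- CMP replicate 2 also stood apart, with 10 of the 33 genes above and 11 below all other CMP libraries. Its slope of log2 counts on log2 gene length was -0.61, the lowest of all. The other progenitor libraries had slopes of -0.34 to 0.03 and the BMMC libraries 0.25 to 0.35, so the slope went with cell type. Fold changes and shares of BMMCs against progenitors are given without adjustment for it.

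Reads were counted only where they aligned to 1 place, so reads that matched another gene equally well were not counted. Of the 50-base windows of the gene's main transcript, 85.5% in Eno1, 85.0% in Gapdh, 68.4% in Pgk1, 66.9% in Ldhb and 64.6% in Pkm also matched a transcript of another gene with at most 2 mismatches. The share was 58.5% in Aldoa, 53.3% in Gpi1, 50.7% in Ldha, 41.9% in Pgam1 and 34.0% in Tpi1. Gapdh, which encodes an abundant enzyme in most cells, had only 2 to 21 reads in each library, Pgk1 69 to 447 and Pgam1 23 to 142. Pseudogenes that shared windows with Gapdh summed to 317 to 3175 reads per library. Those of Pkm summed to 685 to 3300 and those of Eno1 to 23 to 98. Gm1840, which shared Gpi1 windows, had 1360 to 11166. The gene of origin of these reads was not tested. The levels of Gapdh, Pgk1 and Pgam1 are uncertain, and those of Eno1, Ldhb, Pkm, Aldoa, Gpi1, Ldha and Tpi1 may be too low by an unknown amount. Pklr at 23.3%, Pfkfb2 at 25.7% and Pfkp at 17.1% had less shared sequence, and the other genes had at most 2.33%. Differences between cell types within a gene use the same windows in each library. Counts were per gene, so splice forms such as the M1 and M2 forms of Pkm were not told apart.

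**Figure D1:**
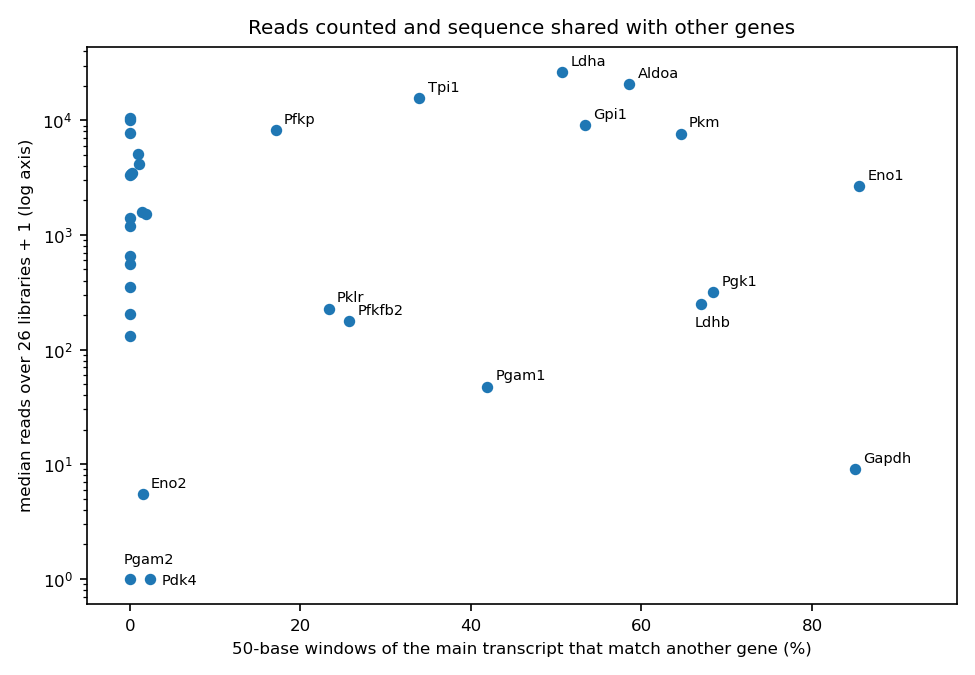
Percent of each gene's 50-base transcript windows that also match another gene's transcript (x axis) against the median read count per library (y axis, reads + 1 on a log scale), with 1 point per gene. Gapdh combined 85.0% shared windows with 2 to 21 reads per library.

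Summed over the 33 genes, the level was 1267 to 1682 in the CMP libraries, 1584 to 1822 in GMPs and 1386 to 1740 in BMMCs. The genes differed far more than these sums. In wild-type CMPs Ldha stood highest at 449 ± 78.0 (SD, n = 4). In wild-type BMMCs Aldoa stood highest at 441 ± 25.3 (SD, n = 5). At the other end, Pgam2, the muscle phosphoglycerate mutase, had 0 to 4 reads in any library and Pdk4 0 to 7, at or near the limit of 3 reads that a count of 0 allows. Eno2, the neuronal enolase, had 0 to 14 reads in progenitors and 48 to 130 in BMMCs.

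**Figure D2:**
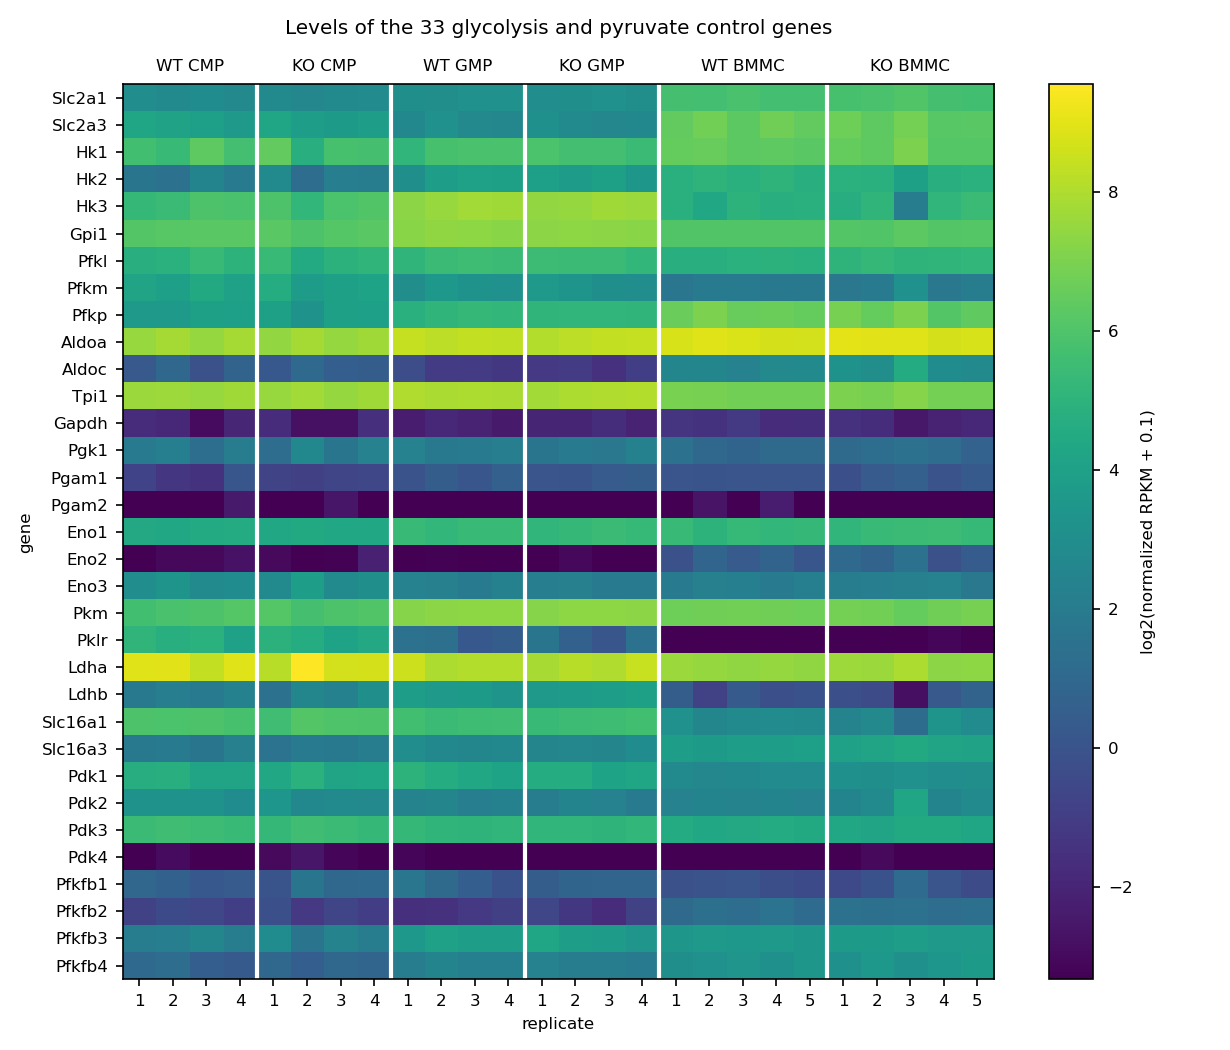
Level of each gene (rows) in each of the 26 libraries (columns, by group and replicate), as colour for log2(normalized RPKM + 0.1). Colours change between CMPs, GMPs and BMMCs, as for Pklr and Slc2a3, and little between genotypes, with Prss57-/- (KO) BMMC replicate 3 apart for Hk3.

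The comparison of GMPs with CMPs asked how these genes differ between neighbouring stages of the granulocyte-monocyte line. Pkm, Hk3, Hk2, Gpi1, Pfkp, Ldhb, Pfkfb3 and Pfkfb4 were all more than 2-fold higher in wild-type GMPs, while Pklr, Aldoc and Slc2a3 were more than 2-fold lower. Of the 30 genes that passed the filter on low counts, 21 were called at an adjusted p under 0.05 by edgeR's quasi-likelihood test, 14 higher and 7 lower in GMPs, where 27.9% of all 15900 tested genes were called, 15.4% higher and 12.5% lower. Their median log2 fold change was 0.34 against -0.01 for all genes. At an adjusted p under 0.01 and at least 2-fold, 11 were called, 8 higher and 3 lower, against 11.6% of all genes, 5.96% higher and 5.65% lower. In Prss57-/- cells 22 of 30 were called, 14 higher and 8 lower, against 35.7% of all genes, 16.9% higher and 18.8% lower, with a median log2 fold change of 0.32 against -0.03. The genotypes were tested as separate libraries, and 20 genes were called in both, all in the same direction. The interaction of genotype and progenitor type called none of the 30 and none of 15900 genes (0%), and at an unadjusted p under 0.05 it picked 0 of the 30 and 169 of all. limma voom and DESeq2 also called 0 of the 30 for the interaction. Between these populations late neutrophil and erythroid markers differed as given above, and their part in the differences was not tested. In bulk RNA, fewer cells of a type and less RNA per cell cannot be told apart. The study's legends call the samples biological replicates, but no label ties a library to a mouse, so p-values measure the spread between these libraries.

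**Figure D3:**
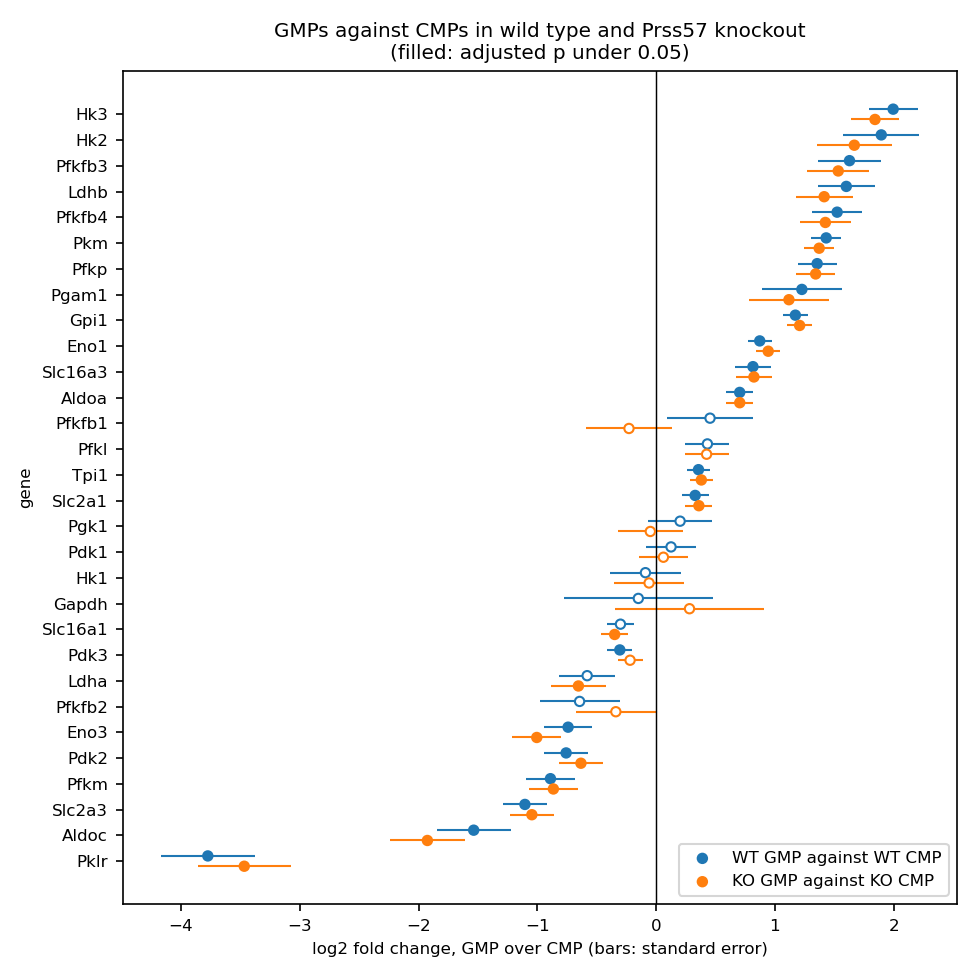
log2 fold change of GMPs against CMPs (points, with SE bars) for each tested gene, in wild-type and in Prss57-/- cells. Points right of 0 are higher in GMPs, filled points had an adjusted p under 0.05, and 27 of 30 genes lie on the same side of 0 in both genotypes.

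The comparison of BMMCs with progenitors asked which of these genes differ in cultured mast cells, with sex and run differing as well. In wild-type BMMCs the glucose transporters Slc2a1 and Slc2a3, together with Pfkp, Hk2, Aldoc and Pfkfb2, were more than 2-fold higher than in GMPs, and Pklr, Ldhb, Hk3, Slc16a1 and Pdk1 were more than 2-fold lower. Against wild-type GMPs, 27 of 31 tested genes were called, 11 higher and 16 lower, where 77.4% of 16109 genes were called, 37.9% higher and 39.5% lower. Against wild-type CMPs, 29 of 31 were called, 15 higher and 14 lower, where 80.8% were called, 40.3% higher and 40.6% lower. Eno2 passed the filter only through BMMCs and Pklr only through progenitors, so that both had to differ. Without these 2 genes, 25 of 29 were called against wild-type GMPs, 10 higher and 15 lower, and 27 of 29 against CMPs, 14 higher and 13 lower. The share of all genes called was itself high in these comparisons. At an adjusted p under 0.01 and at least 2-fold, 18 of 31 were called against each progenitor, where 49.4% and 55.4% of all genes were, or 16 of 29 without Eno2 and Pklr. Prss57-/- BMMCs had 22 of 31 called against GMPs, 10 higher and 12 lower, where 66.7% of all genes were (33.9% higher, 32.9% lower). Against Prss57-/- CMPs 25 of 31 were called, 14 higher and 11 lower, where 73.8% were (36.7% higher, 37.1% lower). Without Eno2 and Pklr these were 20 and 23 of 29. The comparisons with GMPs and with CMPs share the BMMC libraries. Macrophage and dendritic cell markers were higher in BMMCs, 8 of 8 called against each progenitor, and cycling cell markers summed to 49.6 to 176 in BMMCs against 352 to 440 in progenitors. The part of these markers in the differences was not tested.

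Both glucose transporters were far higher in BMMCs than in progenitors, and between progenitors Slc2a3 fell in GMPs. Slc2a3 had 18.7, 16.9, 15.0 and 11.8 in wild-type CMPs and 6.39, 9.10, 6.62 and 6.04 in wild-type GMPs. The Prss57-/- libraries had 19.0, 14.8, 12.7 and 14.2 in CMPs and 8.85, 7.07, 6.06 and 6.25 in GMPs. Every CMP library was above every GMP library. The fall in wild-type GMPs was 2.15-fold (log2 -1.10 ± 0.19 (SE), adjusted p = 3.59e-04). In BMMCs Slc2a3 was 86.9, 113, 77.7, 108 and 88.2 in wild-type and 105, 81.3, 116, 73.7 and 76.8 in Prss57-/- libraries, all above the progenitors. Against wild-type GMPs this was a log2 fold change of 3.66 ± 0.18 (SE), adjusted p = 9.39e-11, and against CMPs of 2.53 ± 0.17 (SE), adjusted p = 2.44e-09. Slc2a1 had 7.80, 6.72, 7.46 and 6.46 in wild-type CMPs, 8.53, 8.25, 8.92 and 8.94 in wild-type GMPs and 53.6, 52.0, 58.0, 52.1 and 51.3 in wild-type BMMCs. The Prss57-/- libraries ran from 6.03 to 7.36 in CMPs, 7.77 to 9.04 in GMPs and 50.4 to 66.7 in BMMCs. The progenitor ranges lie close together and far below the BMMCs. Slc2a1 was 5.77-fold higher in wild-type BMMCs than in GMPs (log2 2.53 ± 0.09 (SE), adjusted p = 2.92e-12). Its difference between wild-type GMPs and CMPs was small (log2 0.33 ± 0.11 (SE), adjusted p = 0.0398) and was not called under 13 of 25 other settings, with an adjusted p of up to 0.471.

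The hexokinases, which phosphorylate glucose as it enters, differed in their leading gene between cell types. Hk3 was 37.6, 43.9, 62.3 and 57.2 in wild-type CMPs and 157, 191, 220.3 and 209 in wild-type GMPs. Without Prss57, Hk3 was 61.2, 36.7, 60.1 and 65.6 in CMPs and 179, 184, 213 and 195 in GMPs. All GMP libraries were above all CMP libraries, a 3.99-fold rise in wild-type cells (log2 2.00 ± 0.21 (SE), adjusted p = 2.80e-06) and a log2 change of 1.84 ± 0.20 (SE), adjusted p = 6.58e-06 in Prss57-/- cells. BMMCs had 28.5, 21.1, 31.9, 27.3 and 29.1 in wild-type and 26.1, 34.1, 4.08, 35.4 and 43.6 in Prss57-/- libraries, a fall of 2.91 ± 0.16 (SE), adjusted p = 4.01e-10 on the log2 scale from wild-type GMPs. The value of 4.08 belongs to Prss57-/- replicate 3, and without it the log2 change against Prss57-/- GMPs was -2.55, with an adjusted p of 2.93e-07. Against CMPs, Hk3 fell in wild-type BMMCs (log2 -0.93 ± 0.16 (SE), adjusted p = 5.84e-05) and in Prss57-/- BMMCs had a log2 difference of -1.02 ± 0.44 (SE), adjusted p = 0.0516, or -0.74 at an adjusted p of 0.00444 without replicate 3. Hk2, the inducible hexokinase that binds mitochondria, rose at each step. It had 3.05, 2.73, 5.46 and 4.01 in wild-type CMPs, 8.41, 14.3, 16.2 and 16.1 in wild-type GMPs and 28.7, 33.4, 29.0, 33.0 and 28.0 in wild-type BMMCs. Prss57-/- libraries had 7.09, 2.33, 4.43 and 4.23 in CMPs, 15.3, 13.3, 15.8 and 11.1 in GMPs and 29.5, 28.4, 15.6, 27.1 and 29.4 in BMMCs. The GMP libraries did not overlap the CMP libraries, and the Hk2 rise was log2 1.90 ± 0.32 (SE), adjusted p = 3.11e-04 in wild-type cells. From wild-type GMPs to BMMCs it was log2 1.05 ± 0.21 (SE), adjusted p = 2.59e-04. Hk1, the housekeeping form, had 49.4, 42.4, 82.9 and 52.4 in wild-type CMPs, 35.2, 55.6, 58.6 and 57.4 in GMPs and 91.3, 93.9, 78.2, 81.4 and 77.6 in BMMCs. Its progenitor ranges overlapped, with a log2 difference of -0.09 ± 0.30 (SE), adjusted p = 0.842, which became -0.45 at an adjusted p of 2.17e-04 with the length slope as a covariate. In BMMCs Hk1 was higher than in wild-type GMPs by 0.61 ± 0.18 (SE), adjusted p = 0.00692 on the log2 scale.

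Phosphofructokinase, the committed step, was led by Pfkl in every progenitor library and by Pfkp in every BMMC library, with the deposited length constants. With GENCODE exon lengths, Pfkl averaged 46.8% and Pfkm 41.6% of the summed level of the family in wild-type CMPs. The lead of Pfkl in single CMP libraries therefore depends on the length used. Pfkp, the platelet form, had 12.2, 12.1, 15.9 and 15.2 in wild-type CMPs, 28.9, 34.5, 37.7 and 36.0 in wild-type GMPs and 99.0, 127, 95.0, 99.9 and 90.7 in wild-type BMMCs. The Prss57-/- libraries had 16.0, 9.74, 15.6 and 15.4 in CMPs, 33.7, 35.1, 35.7 and 34.0 in GMPs and 122, 92.4, 127, 69.2 and 84.4 in BMMCs. The 3 cell types did not overlap, and Pfkp was 2.56-fold higher in wild-type GMPs than CMPs (log2 1.36 ± 0.16 (SE), adjusted p = 1.37e-05) and a further 2.79-fold higher in wild-type BMMCs (log2 1.48 ± 0.12 (SE), adjusted p = 3.79e-08). Pfkm, the muscle form, went the other way. It had 18.0, 15.3, 22.6 and 16.6 in wild-type CMPs, 8.02, 11.6, 9.29 and 9.06 in wild-type GMPs and 3.25, 3.68, 3.88, 3.53 and 3.57 in wild-type BMMCs. Pfkm in Prss57-/- libraries had 24.6, 13.9, 16.0 and 17.6 in CMPs, 12.1, 9.86, 8.36 and 7.77 in GMPs and 3.35, 3.87, 9.05, 3.44 and 4.15 in BMMCs. The wild-type fall was log2 -0.89 ± 0.20 (SE), adjusted p = 0.00379 from CMPs to GMPs and -1.50 ± 0.13 (SE), adjusted p = 5.03e-08 from GMPs to BMMCs. Pfkl, the liver form, had 23.0 to 42.2 in CMPs, 34.0 to 47.2 in GMPs, 27.0 to 31.1 in wild-type BMMCs and 33.0 to 38.0 in Prss57-/- BMMCs. The progenitor ranges overlapped (log2 0.43 ± 0.18 (SE), adjusted p = 0.0937), and Pfkl fell in wild-type BMMCs against GMPs (log2 -0.65 ± 0.12 (SE), adjusted p = 1.45e-04).

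The PFKFB genes set the level of fructose 2,6-bisphosphate, the activator of phosphofructokinase, and 2 of the 4 rose in GMPs. Pfkfb3, the form most tilted towards making the activator, had 4.14, 4.49, 5.88 and 4.13 in wild-type CMPs and 11.5, 16.2, 14.1 and 14.1 in wild-type GMPs. Its Prss57-/- levels were 7.67, 2.95, 5.32 and 4.34 in CMPs and 18.7, 14.2, 13.4 and 10.3 in GMPs. All GMP libraries were higher (log2 1.63 ± 0.26 (SE), adjusted p = 2.07e-04 in wild-type cells), and BMMCs had 11.3 to 14.5, inside the GMP range. Pfkfb3 was still called lower in wild-type BMMCs than in wild-type GMPs. That log2 change was -0.54 to -0.25 over 21 other settings, and 4 of them did not call it. Pfkfb4 had 2.00, 2.35, 1.32 and 1.16 in wild-type CMPs, 4.27, 5.48, 4.69 and 4.65 in wild-type GMPs and 8.28, 8.92, 10.3, 8.82 and 11.1 in wild-type BMMCs. Prss57-/- libraries had 1.86, 1.34, 1.91 and 1.72 in CMPs, 5.21, 4.30, 4.32 and 3.82 in GMPs and 8.63, 11.4, 8.73, 10.6 and 12.7 in BMMCs. The cell types did not overlap, with Pfkfb4 up by 1.52 ± 0.21 (SE), adjusted p = 5.69e-05 on the log2 scale in wild-type GMPs and by 0.90 ± 0.18 (SE), adjusted p = 4.12e-04 from there to BMMCs. Pfkfb2 was low in progenitors, 0.209 to 0.792, and 2.05, 2.59, 2.30, 2.94 and 2.17 in wild-type BMMCs, against 2.65, 2.58, 2.80, 2.37 and 2.60 in Prss57-/- BMMCs. Every BMMC library was above every progenitor library, by 2.80 ± 0.21 (SE), adjusted p = 1.28e-08 on the log2 scale against wild-type GMPs. Pfkfb1 ranged from 0.614 to 3.20 over all libraries. Its wild-type log2 difference was 0.45 ± 0.37 (SE), adjusted p = 0.364 between GMPs and CMPs and -1.29 ± 0.32 (SE), adjusted p = 0.00187 between BMMCs and GMPs.

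Among the enzymes of the middle steps, Gpi1 and Aldoa were high in GMPs and parted in BMMCs. Gpi1, which converts glucose 6-phosphate to fructose 6-phosphate, had 68.7, 74.5, 76.1 and 75.1 in wild-type CMPs and 155, 170.0, 164 and 155 in wild-type GMPs. Gpi1 without Prss57 had 75.8, 60.8, 70.3 and 76.7 in CMPs and 157, 162, 159 and 151 in GMPs, and BMMCs had 65.4 to 79.1. All GMP libraries were above all others, with a rise of 1.17 ± 0.11 (SE), adjusted p = 8.42e-07 on the log2 scale from wild-type CMPs and a fall of 1.37 ± 0.07 (SE), adjusted p = 1.58e-10 to wild-type BMMCs. Aldoa, the aldolase of most tissues, had 190.0, 222, 185 and 221 in wild-type CMPs, 340.3, 309, 326 and 317 in wild-type GMPs and 439, 476, 451, 428 and 409 in wild-type BMMCs. Prss57-/- libraries ran from 178 to 226 in CMPs, 267 to 344 in GMPs and 415 to 517 in BMMCs. The cell types did not overlap for Aldoa, and the log2 fold changes were 0.70 ± 0.11 (SE), adjusted p = 2.05e-04 for wild-type GMPs against CMPs and 1.04 ± 0.09 (SE), adjusted p = 3.36e-08 for BMMCs against CMPs. Aldoc, the brain form, was far lower, with 1.11, 1.96, 0.801 and 1.62 in wild-type CMPs, 0.735, 0.394, 0.378 and 0.332 in wild-type GMPs and 5.91, 5.99, 5.11, 6.52 and 6.84 in wild-type BMMCs. Prss57-/- Aldoc levels were 1.09, 1.99, 1.32 and 1.27 in CMPs, 0.345, 0.394, 0.258 and 0.427 in GMPs and 9.47, 8.23, 23.9, 7.45 and 7.06 in BMMCs. Aldoc was lowest in GMPs and highest in BMMCs. It changed by -1.54 ± 0.31 (SE), adjusted p = 0.00151 on the log2 scale in wild-type GMPs against CMPs and by 3.63 ± 0.29 (SE), adjusted p = 2.21e-08 in BMMCs against GMPs. Tpi1, the triose phosphate isomerase, was 197, 202, 192 and 209 in wild-type CMPs, 259, 239, 254 and 241 in GMPs and 123, 121, 110.3, 114 and 113 in BMMCs. Its rise in GMPs was small (log2 0.36 ± 0.10 (SE), adjusted p = 0.0118), and its fall from GMPs to BMMCs was log2 -1.19 ± 0.07 (SE), adjusted p = 9.72e-10. Tpi1 in Prss57-/- libraries was 182 to 218 in CMPs, 219 to 269 in GMPs and 116 to 149 in BMMCs.

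The lower middle steps held several of the genes with the most sequence shared with other genes. Eno1, the enolase of most tissues, had 22.0, 20.9, 23.5 and 24.4 in wild-type CMPs, 40.4, 37.1, 42.2 and 41.5 in GMPs and 40.0, 31.4, 39.1, 37.2 and 38.0 in BMMCs. It was higher in wild-type GMPs by 0.87 ± 0.10 (SE), adjusted p = 8.34e-06 on the log2 scale. The BMMC against GMP difference (log2 -0.21 ± 0.09 (SE), adjusted p = 0.0457) was not called under 12 of 21 other settings. Eno1 in Prss57-/- libraries was 20.5 to 22.1 in CMPs, 35.4 to 43.8 in GMPs and 35.2 to 44.8 in BMMCs. Eno3, the muscle enolase, had 7.93, 9.99, 7.17 and 7.54 in wild-type CMPs and 5.09, 4.78, 4.05 and 5.01 in GMPs, with 3.48 to 5.13 in BMMCs. It fell in wild-type GMPs (log2 -0.74 ± 0.20 (SE), adjusted p = 0.0126) and was also called lower in Prss57-/- GMPs (adjusted p = 0.00162). Eno2 passed the filter only through the BMMCs and is given by its reads alone. Pgam1, the main phosphoglycerate mutase, had 0.492, 0.308, 0.276 and 0.978 in wild-type CMPs and 0.882, 1.28, 0.981 and 1.45 in GMPs. The ranges overlapped at CMP replicate 4. The log2 change was 1.23 ± 0.34 (SE), adjusted p = 0.0129, and without wild-type CMP replicate 2 it was 1.03 and not called (adjusted p = 0.0547). Pgk1, phosphoglycerate kinase, had 3.87, 4.66, 2.42 and 4.27 in wild-type CMPs, 5.20, 3.54, 3.84 and 4.37 in wild-type GMPs and 2.84, 1.93, 1.67, 2.10 and 2.09 in wild-type BMMCs, a log2 change of -1.09 ± 0.21 (SE), adjusted p = 2.18e-04. Between wild-type GMPs and CMPs Pgk1 differed by 0.20 ± 0.27 (SE), adjusted p = 0.596 on the log2 scale. Pgk1 in Prss57-/- libraries was 2.32 to 6.28 in CMPs, 3.08 to 4.96 in GMPs and 1.57 to 2.66 in BMMCs, and Pgam1 0.447 to 0.564, 0.920 to 1.27 and 0.788 to 1.47. Gapdh had log2 differences of -0.15 ± 0.63 (SE), adjusted p = 0.877 for wild-type GMPs against CMPs and 1.00 ± 0.49 (SE), adjusted p = 0.0738 for BMMCs against GMPs.

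Pyruvate kinase showed the steepest difference of the 33 genes between progenitors. Pklr (chromosome 3, 89136142 to 89146784, plus strand, GRCm38) had 34.2, 28.2, 29.7 and 16.5 in wild-type CMPs and 2.76, 2.62, 1.07 and 1.29 in wild-type GMPs. Pklr without Prss57 had 30.7, 24.8, 17.4 and 21.8 in CMPs and 3.06, 1.51, 0.975 and 2.73 in GMPs. The lowest CMP library was above the highest GMP library, and Pklr was 13.7-fold lower in wild-type GMPs (log2 -3.77 ± 0.40 (SE), adjusted p = 3.48e-06) and 11.1-fold lower in Prss57-/- GMPs (log2 -3.47 ± 0.39 (SE), adjusted p = 8.15e-06). BMMCs had 0 Pklr reads in all 5 wild-type and in 4 of 5 Prss57-/- libraries, and 1 read in Prss57-/- replicate 4. With a floor of 3 reads per library, Pklr was at least 38.9-fold lower in wild-type BMMCs than in GMPs and at least 547-fold lower than in CMPs. The erythroid marker sum was 23.0 to 85.9 in CMPs, 2.97 to 19.0 in GMPs and 1.92 to 9.63 in BMMCs. Like Pklr it was highest in CMPs, but its GMP and BMMC ranges overlapped and the CMP libraries did not stand in the same order for both. The part of erythroid cells in the Pklr difference was not tested. Pkm went the opposite way, with 50.7, 58.3, 62.7 and 70.1 in wild-type CMPs and 146, 158, 166 and 162 in wild-type GMPs. Prss57-/- libraries had 71.4, 53.8, 62.1 and 66.7 in CMPs and 148, 162, 162 and 159.5 in GMPs, and BMMCs had 91.8 to 121. The 3 cell types did not overlap. Pkm rose 2.70-fold in wild-type GMPs (log2 1.43 ± 0.13 (SE), adjusted p = 5.76e-07) and was lower in BMMCs than in GMPs by 0.65 ± 0.09 (SE), adjusted p = 8.54e-06 on the log2 scale.

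Lactate dehydrogenase was almost all Ldha, the subunit that favours lactate. Ldha had 477, 504, 333 and 481 in wild-type CMPs and 376, 252, 269 and 268 in wild-type GMPs. Ldha without Prss57 had 288, 749, 401 and 429 in CMPs and 233, 287, 260.2 and 354 in GMPs. The ranges overlapped, and the log2 difference was -0.58 ± 0.23 (SE), adjusted p = 0.0759 in wild-type cells and -0.65 ± 0.23 (SE), adjusted p = 0.0402 in Prss57-/- cells. Without Prss57-/- CMP replicate 2, whose 749 was the highest Ldha value of all, the latter was -0.34 with an adjusted p of 0.188. BMMCs had 195, 186, 171, 182 and 168 in wild-type and 202, 193, 252, 159 and 164 in Prss57-/- libraries, a log2 fall of 1.39 ± 0.14 (SE), adjusted p = 2.01e-07 against wild-type CMPs. Ldhb, the subunit that favours pyruvate, had 3.60, 4.52, 3.84 and 4.87 in wild-type CMPs, 14.2, 12.5, 12.7 and 10.1 in GMPs and 1.31, 0.463, 1.14, 0.794 and 0.845 in BMMCs. Prss57-/- libraries had 2.76, 5.82, 4.88 and 8.50 in CMPs, 12.3, 13.1, 14.2 and 16.1 in GMPs and 0.774, 0.689, 0.0448, 1.09 and 1.60 in BMMCs. GMPs were above CMPs and CMPs above BMMCs in every library. The Ldhb log2 changes were 1.60 ± 0.24 (SE), adjusted p = 1.14e-04 for wild-type GMPs against CMPs and -3.85 ± 0.23 (SE), adjusted p = 6.18e-10 for BMMCs against GMPs.

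The lactate transporters exchanged places in BMMCs. Slc16a1 (MCT1) had 62.8, 60.6, 61.6 and 55.2 in wild-type CMPs, 50.1, 43.7, 46.2 and 49.3 in GMPs and 9.01, 5.86, 6.82, 7.32 and 7.01 in BMMCs. Its Prss57-/- levels were 48.1 to 68.1 in CMPs, 42.2 to 49.5 in GMPs and 5.32, 6.68, 2.24, 9.85 and 7.20 in BMMCs. Every progenitor library was above every BMMC library, and Slc16a1 was 7.01-fold lower in wild-type BMMCs than in GMPs (log2 -2.81 ± 0.11 (SE), adjusted p = 1.36e-11). Between progenitors the log2 difference was -0.30 ± 0.11 (SE), adjusted p = 0.0589 in wild-type cells. Slc16a1 was called lower in Prss57-/- GMPs than in Prss57-/- CMPs. There the log2 change was -0.43 to -0.25 over 25 other settings, and 8 of them did not call it. Slc16a3 (MCT4) had 3.61, 3.86, 3.05 and 4.85 in wild-type CMPs, 7.70, 6.34, 5.86 and 6.32 in GMPs and 14.6, 12.9, 14.7, 14.6 and 15.4 in BMMCs. Slc16a3 without Prss57 had 2.93, 3.88, 3.62 and 4.25 in CMPs, 5.61, 6.06, 5.76 and 7.50 in GMPs and 16.2, 18.2, 22.8, 18.1 and 16.9 in BMMCs. The cell types did not overlap for Slc16a3, with log2 changes of 0.82 ± 0.15 (SE), adjusted p = 7.36e-04 for wild-type GMPs against CMPs and 1.04 ± 0.13 (SE), adjusted p = 2.55e-06 for BMMCs against GMPs.

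The kinases of pyruvate dehydrogenase were led by Pdk3 in each cell type and were mostly lower in BMMCs. Pdk3 had 44.3, 49.3, 45.1 and 40.3 in wild-type CMPs, 38.6, 33.7, 33.1 and 35.1 in GMPs and 24.3, 21.2, 21.8, 24.1 and 22.2 in BMMCs. Pdk3 in Prss57-/- libraries was 38.5 to 48.8 in CMPs, 32.5 to 36.6 in GMPs and 18.0 to 22.8 in BMMCs. It was below the progenitors in every BMMC library (log2 -0.72 ± 0.09 (SE), adjusted p = 2.60e-06 against wild-type GMPs). Its change between wild-type GMPs and CMPs, log2 -0.31 ± 0.11 (SE), adjusted p = 0.0411, was not called under 12 of 25 other settings. Pdk1, a target of hypoxia-inducible factor, had 25.8, 27.1, 18.1 and 18.4 in wild-type CMPs, 32.3, 24.8, 20.2 and 17.5 in GMPs and 6.69, 6.09, 6.36, 7.37 and 7.31 in BMMCs. Progenitors overlapped (log2 0.13 ± 0.21 (SE), adjusted p = 0.673) and were all above BMMCs, with 17.7 to 29.7 in Prss57-/- progenitors (log2 -1.90 ± 0.17 (SE), adjusted p = 9.61e-08 against wild-type GMPs). Pdk2 had 9.26, 9.44, 9.33 and 7.47 in wild-type CMPs and 5.31, 5.76, 4.45 and 4.87 in GMPs, and it fell in wild-type GMPs by 0.76 ± 0.19 (SE), adjusted p = 0.00619 on the log2 scale. BMMCs had 5.03 to 5.59 in wild-type libraries and 5.55, 6.84, 19.8, 5.56 and 6.80 in Prss57-/- libraries. The value of 19.8 in Prss57-/- replicate 3 was the highest Pdk2 level of the 26 libraries.

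To see which isoenzyme each cell type used, the level of a gene was taken as a percent of its family's summed level in each library. Hk3 made up 45.7 ± 4.78% (SD, n = 4) of hexokinase in wild-type CMPs, 75.0 ± 2.23% in wild-type GMPs and 19.5 ± 3.33% (SD, n = 5) in wild-type BMMCs. Hk1 made up 50.9 ± 4.69%, 19.8 ± 1.59% and 59.2 ± 3.02% in the same groups, or 39.3%, 13.3% and 47.1% with GENCODE exon lengths, so which of Hk1 and Hk3 leads in CMPs depends on the length used. With the deposited constants it also differed between wild-type CMP libraries. Hk3 led in replicates 2 (49.3% against 47.7%) and 4 (50.4% against 46.1%), and Hk1 led in the rest. Pfkp made up 21.6 ± 1.62%, 39.9 ± 1.14% and 75.7 ± 2.87% of phosphofructokinase. Pklr made up 31.0 ± 8.81% of pyruvate kinase in wild-type CMPs, 1.23 ± 0.602% in GMPs and 0% in BMMCs. Slc16a1 made up 93.9 ± 1.44%, 87.8 ± 1.01% and 33.2 ± 2.91% of both lactate transporters together. Slc2a3 made up 68.4 ± 3.27%, 44.6 ± 5.38% and 63.7 ± 4.57% of both glucose transporters together, lowest in GMPs. Between wild-type GMPs and CMPs none of the shares named above overlapped between libraries, each with an exact two-sided permutation p of 0.0286, the smallest that 4 against 4 libraries can give. In Prss57-/- cells the shares of Hk3 were 49.3 ± 7.15% in CMPs, 74.5 ± 3.26% in GMPs and 20.2 ± 10.8% in BMMCs, the last 24.6% without replicate 3. The shares depend on the gene length constants: with GENCODE exon lengths Slc2a3 came to 56.0% in wild-type CMPs and 32.2% in GMPs, and Pklr to 44.4% in CMPs, while the order of cell types did not change for these 2 genes. More of the Pkm windows (64.6%) than of the Pklr windows (23.3%) matched another gene, and the part of this in the Pklr share was not tested.

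**Figure D4:**
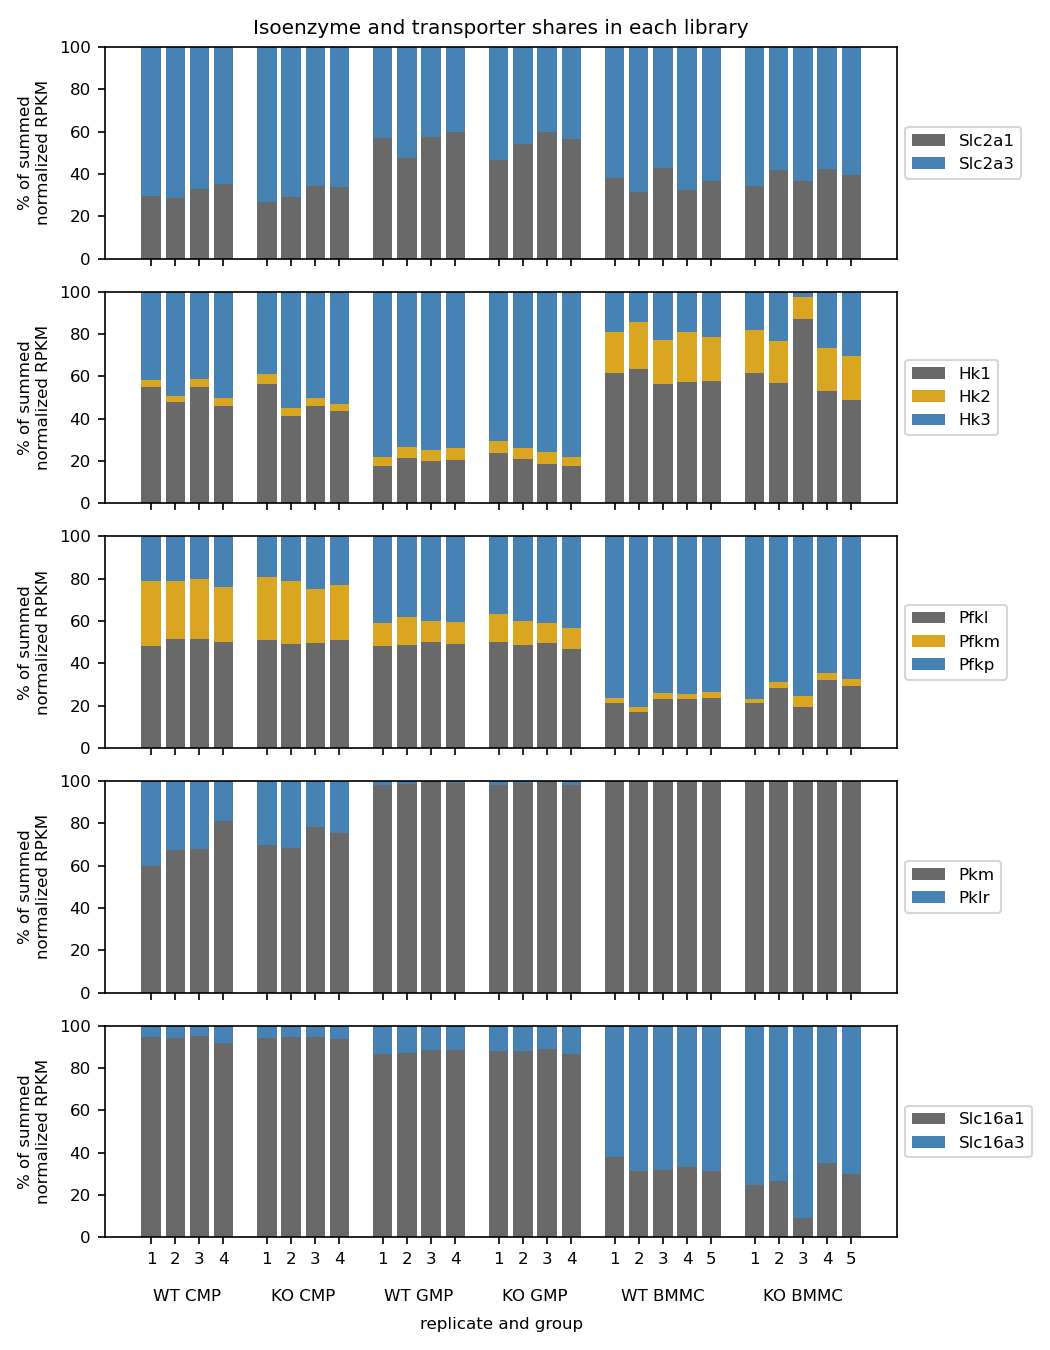
Percent of each family's summed normalized RPKM taken by each gene, as stacked bars for each of the 26 libraries, with a panel for each of 5 families. The Hk3 part is largest in GMPs (75.0% on average in wild-type), the Pfkp part in BMMCs (75.7%) and the Pklr part in CMPs (31.0%).

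Whether loss of Prss57 changed these genes was asked within each cell type. None of the 30 tested genes was called in GMPs, where 0.0136% of all genes were, and none of 30 in CMPs, where 0.0067% were. None of 29 was called in BMMCs, where 0% of 13938 genes were. At an unadjusted p under 0.05 edgeR picked 0 of the genes in GMPs (119 of all genes), 0 in CMPs (76 of all) and 5 in BMMCs (332 of all). limma voom and DESeq2 also called 0 in each cell type. Levels of each of the 33 genes overlapped between genotypes in GMPs and in CMPs, where 0.994% and 0.818% of all tested genes did not overlap. In BMMCs, 4 of the genes were higher in all 5 Prss57-/- libraries than in all 5 wild-type libraries, where 0.481% of all genes were higher in this way and 0.717% did not overlap in either direction. Pfkl was 33.4, 38.0, 33.0, 34.4 and 36.7 in Prss57-/- and 27.6, 27.0, 29.5, 31.1 and 29.0 in wild-type BMMCs (log2 0.28 ± 0.06 (SE), unadjusted p = 0.00124 by edgeR). Pdk1 was 8.78, 8.35, 9.02, 7.86 and 8.03 against 6.69, 6.09, 6.36, 7.37 and 7.31 (log2 0.31 ± 0.08 (SE), unadjusted p = 0.00214 by edgeR). In both cases the lowest Prss57-/- library was above the highest wild-type library. Slc16a3 and Aldoc, whose BMMC values stand above, gave log2 0.35 ± 0.10 (SE), unadjusted p = 0.00472 and log2 0.88 ± 0.33 (SE), unadjusted p = 0.0234 by edgeR. The Aldoc difference rests in large part on Prss57-/- replicate 3, and without it was log2 0.40 ± 0.11 (SE), adjusted p = 0.473. The other 3 differences were 0.26 to 0.30 without that library. Each of the 4 had an exact two-sided permutation p of 0.00794, the smallest that 5 against 5 libraries can give, and edgeR gave each an adjusted p of 1.00. Any gene whose libraries do not overlap gets this permutation p, so it adds nothing to the lack of overlap. These 4 genes were chosen after their values were seen. Pfkfb3 was the fifth gene at an unadjusted p under 0.05 (log2 0.14 ± 0.06 (SE), unadjusted p = 0.0473 by edgeR). The depth and replicate number limit how small a genotype difference could be called, and these results do not show that the genotypes were alike.

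Prss57-/- BMMC replicate 3 had 16 of the 33 genes above and 6 below all other 9 BMMC libraries. Aldoc was 23.9 there against 5.11 to 6.84 in wild-type BMMCs, Pdk2 19.8, Pfkm 9.05 and Hk1 131. Hk3 at 4.08, Hk2 at 15.6, Slc16a1 at 2.24 and Ldhb at 0.0448 were the lowest of the BMMC libraries. The low sum of macrophage and dendritic cell markers and the high sum of mast cell markers belonged to the same library, and their part in these values was not tested. Without it, 23 of 31 genes were called in Prss57-/- BMMCs against GMPs, where 69.7% of all genes were, and 26 of 31 against CMPs, where 76.4% were, and the genotype comparison in BMMCs still called 0.

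**Figure D5:**
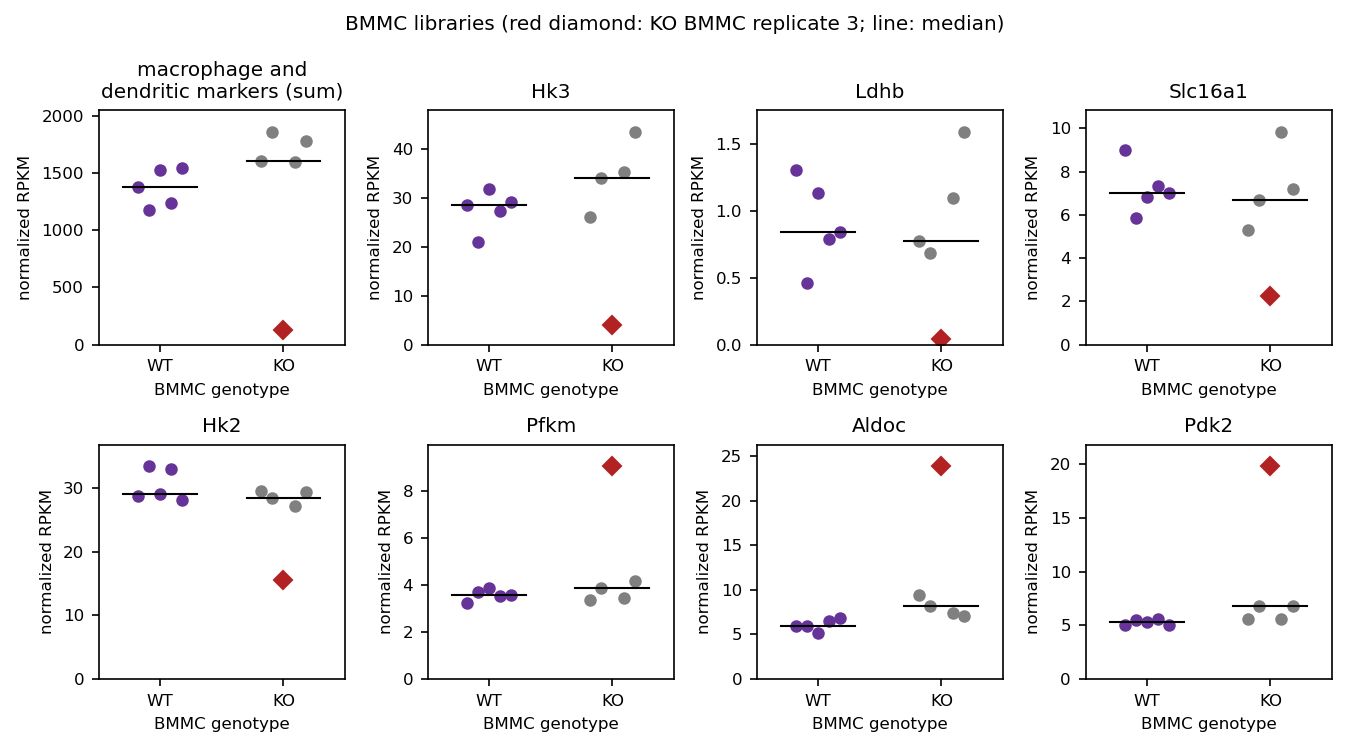
Level (normalized RPKM) of 7 genes, and summed level of 8 macrophage and dendritic cell markers, in each wild-type (WT) and Prss57-/- (KO) BMMC library, with a line at each group's median. Prss57-/- replicate 3 (red diamond) lies outside the other 9 libraries in every panel, at 4.08 for Hk3 and 23.9 for Aldoc.

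Genes around the pathway were counted in 5 lists. In wild-type GMPs against CMPs the pentose phosphate pathway, which makes NADPH, had 5 of 7 genes called, all higher, among them Pgd (log2 1.60), G6pdx (1.06) and Tkt (0.70). Glycogen genes had 6 of 12 called, all higher, led by Gys1, glycogen synthase (log2 1.95), Phkb (1.36) and Pygl (1.32). The genes of pyruvate entry to mitochondria had 1 of 10 called, Dlat, a pyruvate dehydrogenase subunit (log2 0.42). Regulators of glycolysis had 5 of 12 called, 4 higher and 1 lower, including Txnip, an inhibitor of glucose uptake (log2 -1.10), and the HIF prolyl hydroxylases Egln1 (0.91) and Egln3 (0.87). Other genes of glycolysis and gluconeogenesis had 10 of 14 called, 7 higher and 3 lower, among them Ldhd (log2 -3.25), with 5 to 49 reads in CMP and 0 to 8 in GMP libraries, Ldhc (log2 3.04), with 10 to 35 reads in CMP and 119 to 220 in GMP libraries, and Tigar (1.36). With so few GMP reads, Ldhd passed the filter on low counts through CMPs, and the 10 of 14 includes it. In Prss57-/- cells the called numbers were 4 of 7, 6 of 12, 1 of 10, 5 of 12 and 9 of 14 in the same order of lists. These counts stand beside the shares of all genes called, 27.9% in wild-type and 35.7% in Prss57-/- cells.

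In wild-type BMMCs against GMPs, pyruvate entry genes had 6 of 10 called and all 6 were lower, with the pyruvate carrier Mpc2 at log2 -1.31, Pdha1 at -0.96 and Pdhb at -0.90. The pentose phosphate pathway had 5 of 7 called, all lower, with Pgls at log2 -2.02, Tkt at -1.66 and Rpia at -1.64. Glycogen genes had 10 of 12 called, 5 in each direction, with Phka2 at log2 -2.23, Gsk3b at 1.88 and Phka1 at 1.51. Other glycolysis and gluconeogenesis genes had 14 of 15 called, 5 higher and 9 lower, among them Fbp1, a gluconeogenic phosphatase (log2 -5.53). Hkdc1 had 8 to 23 reads in BMMC libraries and 0 in GMP libraries, and Ldhc 0 to 2 and 119 to 220, so no fold is given for either. Hkdc1 could not pass the filter on low counts through GMPs, nor Ldhc through BMMCs. Both therefore had to differ, and the 14 of 15 includes them. Regulators had 8 of 12 called, 5 higher and 3 lower, with Epas1, which encodes HIF-2α, at log2 6.12, Egln3 at -4.71 and Txnip at 3.39. Against wild-type CMPs, 7 of 10 pyruvate entry genes were called, all lower, and 11 of 12 regulators, 8 higher and 3 lower, including Hif1a (log2 3.41). These counts stand beside the backgrounds of 77.4% and 80.8% given above. No gene of the 5 lists was called between genotypes in any cell type by edgeR, and at an unadjusted p under 0.05 there were 0 in CMPs, 0 in GMPs and 2, both regulators, in BMMCs.

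The genes with levels most like those of Pklr, Hk3 and Pfkp were found by Pearson's r of log2(normalized RPKM + 0.1) over the 26 libraries, among 14816 genes. For Pklr they were Ermap (0.997), Aqp1 (0.997), Nxpe2 (0.996), Rhd (0.995) and Car1 (0.994). For Hk3 they were Csf3r (0.986), Ckap4 (0.986), Cds1 (0.984), P3h1 (0.984) and Arsb (0.978). For Pfkp they were Nucb1 (0.994), Mboat7 (0.994), Cerk (0.992), Dtx4 (0.992) and Glmp (0.990). The 26 libraries fall into 3 cell types, with BMMCs from another run, so these values describe a shared order of cell types.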

How the data were processed

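RNA was measured by sequencing in 26 bulk libraries, 4 per genotype of CMPs and of GMPs and 5 per genotype of BMMCs. Per the study's methods, libraries were made with a stranded total RNA kit and read as single ends. The authors aligned reads to GRCm38 with GSNAP in HTSeqGenie, kept uniquely aligned reads, and deposited counts of reads in the exons of each gene, not normalized. A second deposited value, normalized RPKM, scales each count by a constant per gene, which stands for its length, and a size factor per library. Reads were not realigned here. Gene positions came from GENCODE M21, in which 52403 of 52636 genes were found, and promoters from RefSeq on GRCm38.p6.

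The counts were tested with edgeR 4.0.16 in R 4.3.3 (TMM, filterByExpr, robust quasi-likelihood), with GMPs and CMPs of both genotypes in 1 fit, BMMCs and progenitors of each genotype in another, and the genotypes of a cell type in a fit of their own, and p-values adjusted by Benjamini-Hochberg over all tested genes. A gene was called at an adjusted p under 0.05, with no limit on fold. limma 3.58.1 and DESeq2 1.42.0 served as alternatives, together with other normalizations and filters, an adjusted p under 0.01 with at least 2-fold, a replicate block, 1 fit of all libraries, and each library left out. The length slope as a covariate was chosen after seeing the data, and its results are not given for BMMCs against progenitors. Shares and single values were compared by exact permutation in Python 3.11.15 (pandas 2.3.3, numpy 2.4.6, scipy 1.17.1, figures with matplotlib 3.10.9). Shared sequence was found by matching 50-base windows to all GENCODE M21 transcripts with up to 2 mismatches. The scripts were tested on simulated data. Values in every library, or ranges, were given for most genes called at 2-fold between cell types and for the leading gene of each family, and in the other lists the 3 called genes of largest change were named. The genes, lists and tests were chosen with earlier results of these data known. Each library held between 18627626 and 53264762 reads on genes, so a gene at 0 reads could hold up to 3, a limit that covers counting error only.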

Additional observations from a re-analysis of the deposited data

Results flagged for a closer look

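In 164 sets of 1 gene and 1 group, 14 had a library set apart from the others of its group by Dixon's test, which chance alone does in about 1 in 20. Of these, 5 belonged to Prss57-/- BMMC replicate 3, with levels in normalized RPKM of 15.6 for Hk2, 9.05 for Pfkm, 23.9 for Aldoc, 19.8 for Pdk2 and 2.12 for Pfkfb1. Wild-type GMP replicate 1 was apart for Hk1 at 35.2, below the other GMP libraries, and for Ldha at 376, above them. In CMPs, wild-type replicate 3 was apart for Ldha at 333, wild-type replicate 4 for Pdk2 at 7.47, Prss57-/- replicate 1 for Pdk2 at 10.7 and Prss57-/- replicate 2 for Pfkp at 9.74. Prss57-/- GMP replicate 1 was apart for Pfkfb1 at 1.29. In wild-type BMMCs, replicate 4 was apart for Gpi1 at 65.4 and replicate 2 for Pfkp at 127.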

How the results depend on the processing

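No gene of the 33 that was called changed direction under any alternative counted here. The length slope as a covariate was left out of these counts for BMMCs against progenitors. For single genes, 3113 values kept the direction and the call and 115 kept the direction but not the call. Of the counts and shares, 381 stayed within 1.5 times (counts) or 1 SD (shares) of the reported value and 33 moved further. At an adjusted p under 0.01 and at least 2-fold, 11 genes were called for wild-type GMPs against CMPs, 12 for Prss57-/- GMPs against CMPs and 18 for wild-type BMMCs against CMPs, fewer because the rule is stricter. Of all genes, 11.6%, 12% and 55.4% were called by that rule. Leaving out each library gave 18 to 24 called genes for wild-type GMPs against CMPs, 18 to 23 in Prss57-/- cells, 26 to 28 for wild-type BMMCs against GMPs, 26 to 30 against CMPs, 20 to 24 and 24 to 26 for the same comparisons in Prss57-/- cells, and 0 for each genotype comparison and the interaction. With the length slope as a covariate, chosen after seeing the data, 28 of 30 genes were called for wild-type and 24 for Prss57-/- GMPs against CMPs, where 41.1% and 36.1% of all genes were. Scaling by library size alone shifted the median log2 fold change of all genes to -0.17 for wild-type GMPs against CMPs, -0.23 for wild-type BMMCs against GMPs and -0.34 against CMPs, and called 21, 26 and 28 genes. The shares of all genes called by library size alone, or with a library left out, are not given. In the main fits they were 27.9%, 77.4% and 80.8% for these wild-type comparisons. In Prss57-/- cells they were 35.7%, 66.7% and 73.8%.

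Replicate numbers are shared between groups, but deviations of libraries with the same number did not all correlate above 0.1 in any pair of groups. This rule cannot exclude that some libraries were paired. Between wild-type CMPs and GMPs the mean correlation was 0.18 for the same number and -0.13 for different numbers. Between Prss57-/- CMPs and GMPs it was 0.31 and -0.10. The main tests treated the libraries as unpaired. With a replicate block, 20 genes were called for wild-type and 21 for Prss57-/- GMPs against CMPs, 27 and 29 for wild-type BMMCs against GMPs and CMPs, 22 and 26 in Prss57-/- cells, and 0 for each genotype comparison and the interaction. The share of all genes called with the block is not given, so these counts show only how the calls moved.

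With GENCODE exon lengths in place of the deposited length constants, the shares in wild-type and Prss57-/- CMPs, then GMPs, then BMMCs were 56.0, 56.6, 32.2, 33.1, 50.8 and 47.9% for Slc2a3 and 11.5, 11.8, 25.6, 25.9, 62.8 and 56.5% for Pfkp. Hk1 came to 39.3 and 35.6% in CMPs, 13.3 and 13.6% in GMPs and 47.1% in wild-type BMMCs. Hk3 came to 56.3 and 59.6% in CMPs, 80.9 and 80.4% in GMPs and 24.8% in wild-type BMMCs. Pklr came to 44.4 and 40.1% in CMPs and 2.19 and 2.33% in GMPs. Slc16a1 came to 95.2% in Prss57-/- CMPs, 89.6 and 89.8% in GMPs and 37.2% in wild-type BMMCs. These values moved because the length constants differ from the exon lengths. BMMC libraries had fewer reads than progenitor libraries, which limits the low genes there most.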
